A study of Mus musculus with 11 samples.

Results

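The mesenchymal-like lines 4C and 4C11- were compared with the epithelial lines melan-a and 4C11+, 4 murine cell lines of 1 lineage that were profiled by total RNA sequencing. Libraries were chosen by the line in their title, so that 6 libraries (3 of 4C, 3 of 4C11-) stood against 5 (2 of melan-a, replicates 2 and 3, and 3 of 4C11+), which are all 11 libraries used here, and all 14272 deposited genes were tested. Melan-a consists of melanocytes of C57Bl/6 background that became immortal in culture without being malignant, and it was grown with 200 nM PMA, a phorbol ester that activates protein kinase C. The other lines were derived from it by cycles of forced detachment from the culture dish, and they were grown in the same medium without PMA. 4C is a pre-malignant line, 4C11- forms tumors that do not metastasize and 4C11+ forms tumors and lung metastases. No engineered allele is named for any line. Each derived line is a single derivation, so a phenotype is represented by 2 lines, the libraries of a line are repeat cultures of it, and the p-values measure the spread between cultures of these 4 lines and not between independent derivations. The contrast was the mean of the 2 mesenchymal-like line means minus the mean of the 2 epithelial line means, on the deposited log2 CPM scale (CPM are read counts relative to the size of the library), and a gene was called at a Benjamini-Hochberg adjusted p under 0.05 from limma. CPM are not divided by transcript length, so levels are compared between lines and not between genes.

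Melanocytes are pigment cells that arise from the neural crest. The transcription factors MITF, SOX10 and PAX3 maintain their identity and switch on the enzymes and structural proteins that make melanin in melanosomes, organelles related to lysosomes. In an epithelial-to-mesenchymal transition (EMT), factors of the SNAIL, ZEB and TWIST families change the adhesion program of a cell from junctions between cells toward matrix and motility, and melanoma cells, which are not of epithelial origin, can pass between pigmented, proliferative states and undifferentiated, invasive states in a related manner, called phenotype switching.

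The names of the phenotypes come from the morphology of the cultures, and they are kept here as labels of the lines. The expression of the standard marker genes followed these names only in part. *Cdh1*, which encodes E-cadherin, was low in all 4 lines, with values of 1.21 and 0.06 in melan-a, 0.44, -0.24 and -0.70 in 4C11+, -1.99, -2.01 and -0.70 in 4C and 1.35, 1.36 and 0.42 in 4C11-. The groups overlapped and the contrast was not called (log2 difference -0.50, standard error 0.45, adjusted p = 0.454). *Cdh2*, which encodes N-cadherin and is commonly used as a mesenchymal marker, was present in the epithelial lines and absent from the mesenchymal-like lines, as described below. Of the defining melanocyte genes, *Tyrp1*, *Dct*, *Mlana*, *Mitf* and *Sox10* were at a log2 CPM of 1.14 or less in every library of 4C and 4C11-.

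Low values lay on steps of whole reads, and the step at 40 reads gave a depth estimate of 3.50 to 7.42 M reads. These values had been normalized by the authors, so the estimate is not the sequenced depth. Libraries that shared the lowest value of -3.44 (all of 4C, replicates 2 and 3 of 4C11-) lay between -2.01 and -1.01 at 3 reads. Absence of a gene from a line or phenotype means that none of the libraries concerned exceeded 3 reads, and the difference is then given as a bound, computed with the lines concerned at their value for 3 reads, whereas standard errors and p-values are those of the fit to the deposited values. Among libraries of the same line the Pearson correlation across the 14272 genes was 0.888 to 0.981, against 0.704 to 0.816 between libraries of different phenotype. In these libraries, a lower share of expressing cells and less RNA per cell cannot be told apart. A pair of libraries stood apart from the other cultures of their line. Melan-a replicate 2 differed from replicate 3 by at least 2 log2 units at 1240 genes, and 4C11- replicate 1 differed from replicates 2 and 3 at 1367 and 2036 genes, whereas the counts were 347 between the latter and 257 to 659 within 4C and 4C11+. Melan-a replicate 2 held higher values of several genes that also mark the mesenchymal-like lines, such as *Tnc* (8.30 against -1.42 in replicate 3), *Col6a1* (7.90 against 0.22) and *Bmp7* (5.36 against -1.42). Counts of list members are given below with and without this pair of libraries, and for several genes that overlapped through melan-a replicate 2 the difference is also given without that library.

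The contrast called 4232 genes. Of these, 2043 were higher in the mesenchymal-like lines (14.3% of the genes tested) and 2189 were lower (15.3%), and the median difference of all genes was -0.09. Without melan-a replicate 2 and 4C11- replicate 1 there were 2400 higher and 2601 lower genes. For 974 genes (6.82%) every mesenchymal-like library was above every epithelial library, and for 1007 genes (7.06%) every one was below. Fitted differences of at least 4 log2 units were found for 376 higher and 260 lower genes, or 229 and 190 genes with absent lines at 3 reads. Of the 14272 genes, 257 were above 3 reads in every mesenchymal-like library and absent from the epithelial lines, whereas 106 showed the reverse pattern. These genes include some of those counted above, such as *Acta2* and *Cdh2*. The epithelial libraries also held fewer genes above 3 reads in general, as given below, and the part of this in the counts was not tested. With the line as a random block, 893 genes were higher (6.26%) and 736 lower (5.16%). This fit gives the cultures of a line a common correlation, estimated as 0.310 for all genes. The cultures of a line thus still count in part as separate samples of a phenotype. A fit on the 4 line means called 289 genes higher and 197 lower.

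The number of genes above 3 reads was also larger in the mesenchymal-like libraries, 13174 to 13750 (mean 13531) against 12488 to 13101 (mean 12785), without overlap between the groups. The difference of 746 genes had p = 0.00433 in an exact permutation test over the 462 arrangements of the 11 libraries, two-sided, with a range of 672 to 825 genes when each library was left out. These arrangements exchange repeat cultures of a line as if they were independent; with whole lines exchanged there are 6 arrangements and the exact permutation p was 0.333, the smallest that 2 lines against 2 can give. The depth estimate moved with it, with a mean of 6.33 M reads in the mesenchymal-like and 4.61 M in the epithelial libraries (exact permutation p = 0.0281 over libraries and 0.333 over lines). The estimate comes from the same normalized values and is not an independent measure. The part of depth in this difference was not tested.

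The contrast joins pairs of lines that share no library. The first pair, 4C against melan-a, sets the non-tumorigenic lines against each other and also differs in PMA, so that the medium and the line cannot be told apart in it. The second pair, 4C11- against 4C11+, sets the tumorigenic lines against each other and both were grown without PMA. In the pair of 4C and melan-a, 1090 genes were higher (7.64%) and 1077 lower (7.55%), and in the pair of 4C11- and 4C11+ 2200 were higher (15.4%) and 2233 lower (15.6%). Both pairs called 1369 genes, 1246 of them in the same direction, with 689 higher (4.83%) and 557 lower (3.9%) in the mesenchymal-like line of each pair. These 1246 genes were 57.5% of the calls of the first pair and 28.1% of the calls of the second. Across the 14272 genes, the differences of the pairs had r = 0.607 and a Spearman rho of 0.381 and shared their sign at 61.1% of the genes. This is a description across genes, which are not independent replicates and share the normalization of the 11 libraries. Of the sum of squares between the 4 line means, 65.8% lay along the phenotype, 17.8% along tumorigenicity (4C11- and 4C11+ against the others) and 16.4% along the difference between the pairs.

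**Figure D1:**
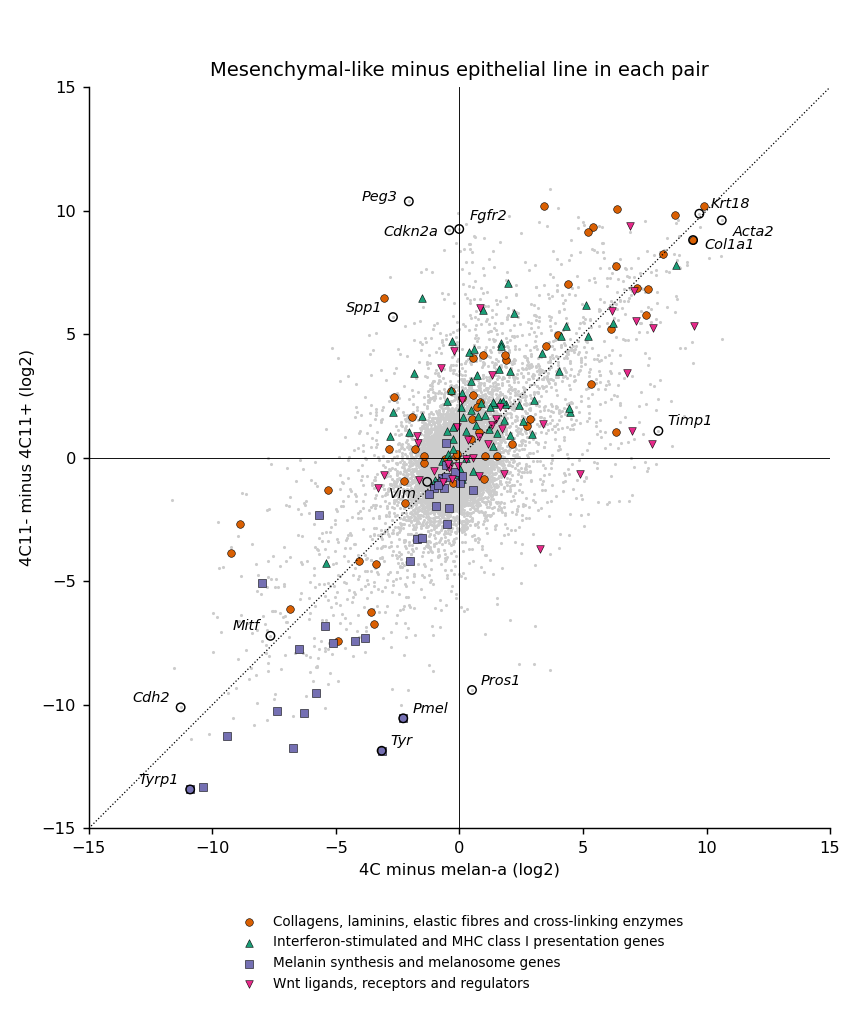
Difference of the mesenchymal-like minus the epithelial line in log2 CPM for each of the 14272 genes (gray points), with 4C minus melan-a on the x axis and 4C11- minus 4C11+ on the y axis; colored symbols are the members of 4 gene lists, black circles are named genes and the dotted line marks equal differences. Collagen and other matrix genes lie mostly at the upper right and melanin and melanosome genes at the lower left, whereas *Fgfr2*, *Cdkn2a* and *Peg3* (upper center) and *Tyr*, *Pmel* and *Pros1* (lower center) differed mainly between 4C11- and 4C11+.

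The genes of melanin synthesis and the melanosome were lower in the mesenchymal-like lines. Of 34 measured members of this list, 28 were lower (82.4%, against 15.3% of all genes) and none was higher, with a median difference of -2.80 against -0.09 over all genes. Among the 29 members with a mean log2 CPM of at least 1, 23 were lower and the median was -1.59. Of all 34 members, 18 were called lower in both pairs, and 21 were lower with the line as a random block. Without the 2 libraries that stood apart, 27 were lower. *Tyrp1*, a melanosomal enzyme of eumelanin synthesis, was at 8.51 and 12.63 in melan-a and 11.64, 11.64 and 11.39 in 4C11+, and at -0.04, -1.01 and 0.06 in 4C and 0.69, -3.15 and -3.15 in 4C11-. *Dct*, which converts dopachrome, was at 9.04 and 10.81 in melan-a and 11.81, 11.39 and 11.91 in 4C11+, against 0.87, 0.26 and -2.44 in 4C and -0.24, -2.58 and -2.01 in 4C11-. For both genes the lowest epithelial library was more than 7 log2 units above the highest mesenchymal-like library. *Mlana*, a melanosomal antigen, differed by -10.35 (standard error 0.58, adjusted p = 1.1e-07) and likewise did not overlap.

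*Tyr* encodes tyrosinase, the rate-limiting enzyme of melanin synthesis. Its values were 8.46, 8.39 and 8.70 in 4C11+ and only -0.25 and 1.29 in melan-a, and it was absent from 4C and 4C11-. The difference of 4C11- from 4C11+ was thus -10.09 or below and that of 4C from melan-a -1.78 or below. *Pmel*, which forms the fibrils of the melanosome, followed the same order, with 12.20, 11.72 and 11.81 in 4C11+ and 2.41 and 2.95 in melan-a, against 0.60, -0.42 and 1.05 in 4C and 2.54, 0.96 and 0.60 in 4C11-. For both genes the difference of the second pair exceeded that of the first (interaction adjusted p = 5.9e-05 and 6.0e-05). *Rab38* and *Rab32*, small GTPases that carry the enzymes to the melanosome, were lower in both pairs, *Rab38* with absence from both mesenchymal-like lines (difference -7.60 or below) and *Rab32* with values of 3.44 to 4.16 in 4C11- against -1.01 to 1.13 in 4C. *Tspan10*, a tetraspanin, was absent from the mesenchymal-like lines (difference -5.94 or below), and *Gpnmb*, a melanosomal glycoprotein, was lower with values that were still high (6.61 to 10.43 in the mesenchymal-like and 11.15 to 12.42 in the epithelial libraries). The 6 members that were not called include the trafficking genes *Dtnbp1* (difference -0.51, adjusted p = 0.0587) and *Ap3b1* (-0.42, adjusted p = 0.0802), which act in lysosome-related organelles of many cell types.

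The promoters of 3 pigment enzyme genes are shown because MITF is known to bind the sequence CATGTG, the core of the M-box, in front of them. Capitals mark each CATGTG, or its reverse complement CACATG, in the 250 bases before the first transcription start that RefSeq lists (GRCm38.p6, sequence on the strand of the gene, 5′ to 3′). The windows are chr7:87493513-87493762 on the minus strand for *Tyr*, chr4:80833963-80834212 on the plus strand for *Tyrp1* and chr14:118052247-118052496 on the minus strand for *Dct*. Each ends at the base before the RefSeq start. The *Tyrp1* gene of the GENCODE annotation begins further upstream, at position 80834123, so that the last 90 bases of its window and the match in it lie inside that gene model.
Tyr: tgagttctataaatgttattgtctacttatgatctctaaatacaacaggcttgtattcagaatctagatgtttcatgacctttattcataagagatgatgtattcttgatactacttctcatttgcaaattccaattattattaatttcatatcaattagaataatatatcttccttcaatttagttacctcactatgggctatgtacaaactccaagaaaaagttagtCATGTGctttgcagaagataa
Tyrp1: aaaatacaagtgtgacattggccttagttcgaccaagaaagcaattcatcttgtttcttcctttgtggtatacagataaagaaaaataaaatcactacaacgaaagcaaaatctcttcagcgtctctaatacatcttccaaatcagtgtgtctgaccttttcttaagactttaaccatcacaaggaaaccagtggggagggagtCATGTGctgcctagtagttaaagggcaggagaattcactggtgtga
Dct: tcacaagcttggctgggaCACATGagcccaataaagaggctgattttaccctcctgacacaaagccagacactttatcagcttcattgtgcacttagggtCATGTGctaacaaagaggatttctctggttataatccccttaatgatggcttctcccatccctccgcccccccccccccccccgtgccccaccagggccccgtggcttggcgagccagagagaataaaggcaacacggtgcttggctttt
Counted from the start, the match begins at position -21 in *Tyr* and -46 in *Tyrp1*, and *Dct* holds matches at -150 and, in the reverse complement, at -232. Promoters from 250 bases before to 50 bases after the start were matched for 9928 genes, and CATGTG on either strand was found in 831 (8.37%). It was found in 27 of 184 promoters (14.7%) of genes lower by a fitted difference of at least 4 log2 units and in 8 of 27 promoters (29.6%) of the melanin and melanosome list, and in 18 of 242 (7.44%) of genes higher by at least 4. The lower genes in this count include members of the melanin and melanosome list. Other sequences were counted in the same 184 promoters and in all 9928. CACGTG was in 5.43% against 10.2%, CAGGTG in 22.3% against 16.7% and GGAATG in 15.2% against 12%. TGAGTCA was in 4.89% against 3.39%. In the 27 promoters of the melanin and melanosome list, CACGTG was also above its share of all promoters, at 22.2%. There CAGGTG was in 3.7%, GGAATG in 0% and TGAGTCA in 7.41%. These shares describe letters in a window and not binding.

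The regulators of the melanocyte lineage were lower as a group. Of 20 measured, 14 were lower (70%, against 15.3% of all genes) and 3 higher (15%, against 14.3%). The median difference was -2.16, and 11 of the lower genes were called in both pairs. The counts were 13 and 3 with the line as a random block and 15 and 3 without the 2 libraries that stood apart. *Mitf*, the central transcription factor of melanocytes, was at 7.73 and 7.97 in melan-a and 6.38, 6.23 and 8.76 in 4C11+, against 0.87, -0.70 and 0.44 in 4C and -0.70, 1.14 and -0.70 in 4C11- (difference -7.43, standard error 0.53, adjusted p = 8.0e-07). *Sox10*, which acts upstream of *Mitf*, was at 9.05 and 7.88 in melan-a and 8.02, 7.68 and 8.34 in 4C11+, against at most 0.48 in the mesenchymal-like libraries. *Pax3*, the third of these factors, was lower by a smaller amount, with 5.10 to 5.60 in the mesenchymal-like and 6.34 to 7.94 in the epithelial libraries (difference -1.67, adjusted p = 0.000122). The levels of *Pax3* did not overlap between the phenotypes, but it was expressed in every library, unlike *Mitf* and *Sox10*.

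Receptors of the melanocyte lineage were also lower. *Mc1r*, the melanocortin receptor, was absent from 4C11- and lower by a difference of -7.88 or below. *Kit*, the receptor of stem cell factor, was at 6.92 and 6.18 in melan-a and 2.69, 2.17 and 4.22 in 4C11+, and at or below -0.04 in every mesenchymal-like library. *Met*, the receptor of hepatocyte growth factor, was lower by a difference of -2.93 (adjusted p = 9.9e-07). The 3 higher genes of this list were *Kitl*, *Lef1* and *Sox9*. *Kitl* encodes stem cell factor, the ligand of KIT, and was at -3.15 and -0.24 in melan-a and 1.77 to 2.01 in 4C11+, against 5.21, 5.66 and 6.05 in 4C and 3.06, 5.19 and 5.54 in 4C11- (difference 5.00, adjusted p = 3.2e-05). The ligand and its receptor thus lay on opposite sides of the contrast. *Sox9*, a neural crest factor, was at 3.65 to 5.47 in the mesenchymal-like and -1.42 to 1.78 in the epithelial libraries, and *Lef1*, a nuclear partner of beta-catenin, was at 4.06 to 4.44 against -2.58 to 3.97.

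**Figure D2:**
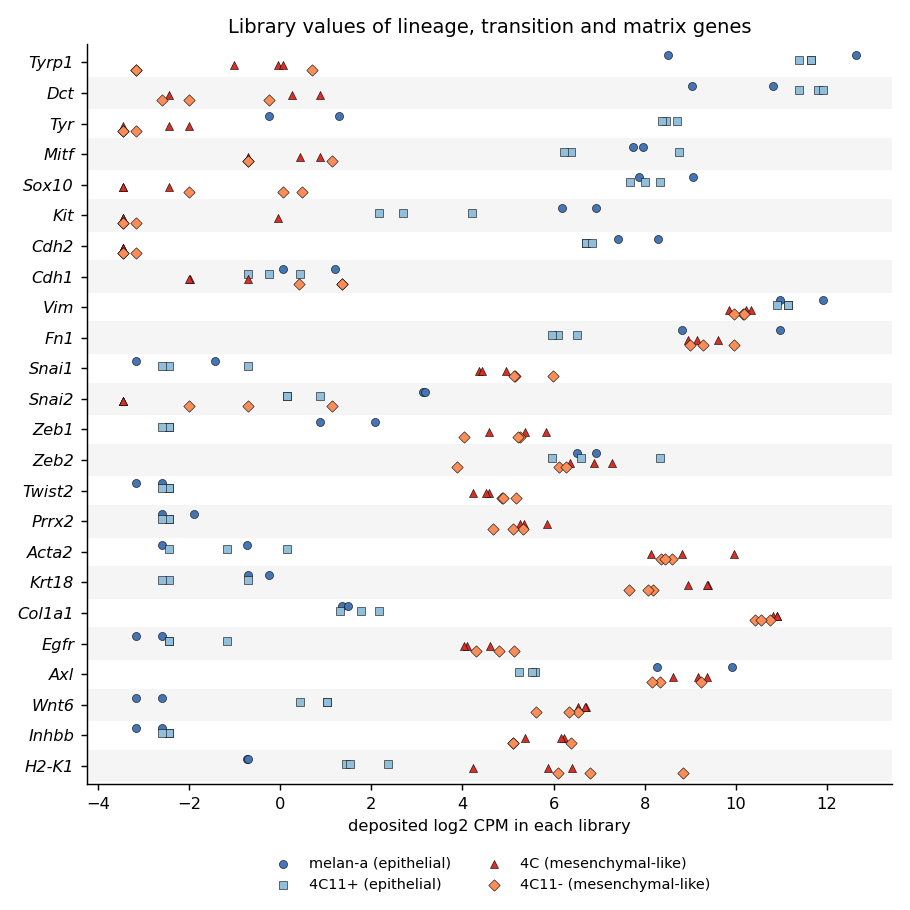
Deposited log2 CPM in each of the 11 libraries (x axis) for 24 genes of the lineage, transition, matrix and signaling lists (y axis), with the epithelial lines in blue (circles melan-a, squares 4C11+) and the mesenchymal-like lines in red and orange (triangles 4C, diamonds 4C11-). *Tyrp1*, *Mitf*, *Sox10* and *Cdh2* are separated with the epithelial libraries to the right, *Acta2*, *Krt18*, *Col1a1* and *Inhbb* with the mesenchymal-like libraries to the right, and *Cdh1* and *Zeb2* overlap.

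Of 22 measured transcription factors of EMT, 13 were higher (59.1%, against 14.3% of all genes) and 3 lower, with a median difference of 1.05, and 6 of the higher genes were called in both pairs. With the line as a random block 7 were higher and 2 lower, and without the 2 libraries that stood apart 14 were higher and 3 lower. *Snai1*, the SNAIL factor that represses E-cadherin, was at 4.36, 4.95 and 4.42 in 4C and 5.99, 5.16 and 5.13 in 4C11- and was absent from both epithelial lines, which gives a difference of at least 5.19. *Twist2* was at 4.22 to 4.59 in 4C and 4.87 to 5.17 in 4C11- and was likewise absent from the epithelial lines (at least 4.89). *Prrx2*, a homeobox factor of mesenchyme, showed the same pattern (at least 5.45), as did *Twist1* at lower values (at least 2.50). These 4 genes were therefore detected in the mesenchymal-like lines and at no more than 3 reads in any epithelial library. *Zeb1* was at 4.59, 5.37 and 5.83 in 4C and 4.04, 5.26 and 5.23 in 4C11-, against 0.87 and 2.08 in melan-a and -2.44, -2.44 and -2.58 in 4C11+, from which it was absent (difference of at least 4.30, adjusted p = 3.7e-07).

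*Snai2*, another SNAIL factor, was lower. It encodes SLUG and is a factor of the normal melanocyte, was at 3.13 and 3.18 in melan-a and 0.15, 0.15 and 0.88 in 4C11+, was absent from 4C and was at 1.13, -2.01 and -0.70 in 4C11- (difference -2.67 or below, adjusted p = 0.00024). *Zeb2*, also a melanocyte factor, was not called, with 3.88 to 7.29 in the mesenchymal-like and 5.96 to 8.33 in the epithelial libraries (difference -0.71, adjusted p = 0.324). The SNAIL family thus held a member on each side of the contrast, and of the ZEB family *Zeb1* was called. *Tead4*, a partner of YAP that is on the same list, was lower (difference -0.94, adjusted p = 0.00515).

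Among 32 measured genes used as mesenchymal and fibroblast markers, 18 were higher (56.3%, against 14.3% of all genes) and 6 lower, with a median difference of 1.29. The counts were 11 and 3 with the line as a random block and 22 and 6 without the 2 libraries that stood apart. *Acta2*, which encodes smooth muscle actin and lies at chr19:34241090-34255590 of GRCm38, was at 8.13, 8.81 and 9.96 in 4C and 8.61, 8.35 and 8.44 in 4C11- and at no more than 3 reads in the epithelial libraries, a difference of at least 8.90. *Egfr*, the receptor of epidermal growth factor, was at 4.03 to 5.13 in the mesenchymal-like lines and absent from the epithelial lines (at least 4.68). *Pdgfra*, a receptor of platelet-derived growth factor, was at 7.32 to 8.22 against 2.08 to 6.38 (difference 4.05, adjusted p = 5.6e-06). For some markers the pairs differed. *Fn1* (fibronectin) and *Axl* were lower in 4C11+ (5.97 to 6.51 and 5.24 to 5.59) than in the 8 other libraries (8.81 to 10.97 and 8.16 to 9.91), and the interaction was called for both (adjusted p = 0.00521 and 0.00777). *Tnc* (tenascin C) was at 7.67 to 9.41 in the mesenchymal-like lines, at -1.16 to -0.70 in 4C11+ and at 8.30 and -1.42 in the 2 melan-a libraries, and so overlapped through melan-a replicate 2. Its difference was at least 6.82 with this library and at least 9.25 without it, and it was called in both fits (adjusted p = 0.00106 and 2.0e-08).

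The 6 lower genes of this list were *Cdh2*, *Postn*, *Itgb3*, *Mcam*, *Vim* and *Eng*, of which *Postn*, *Itgb3* and *Eng* are named only because the count is small. *Cdh2* was at 7.41 and 8.28 in melan-a and 6.71, 6.72 and 6.84 in 4C11+ and had no more than 3 reads in any mesenchymal-like library, a difference of -8.71 or below. *Vim*, which encodes the intermediate filament vimentin, was at 11.91 and 10.97 in melan-a and 11.15, 10.91 and 11.15 in 4C11+, against 10.22, 10.34 and 9.85 in 4C and 10.15, 10.17 and 9.97 in 4C11-. It was highly expressed in all lines and was lower in the mesenchymal-like lines without overlap and in both pairs (difference -1.14, standard error 0.18, adjusted p = 0.0005). *Mcam*, a melanoma adhesion molecule, was lower by -1.14 (adjusted p = 0.00441) with overlapping libraries.

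The epithelial junction and keratin genes were not lower as a group. Of 23 measured, 5 were higher (21.7%, against 14.3% of all genes) and 4 lower (17.4%, against 15.3%). The median difference was 0.45, and 14 were not called. Without melan-a replicate 2 there were 8 higher and 4 lower, and without both libraries that stood apart 9 and 4. *Krt18*, a keratin of simple epithelia, was at 9.40, 9.36 and 8.94 in 4C and 8.18, 7.64 and 8.08 in 4C11- and was absent from the epithelial lines, a difference of at least 8.79. *Krt8*, its usual partner in the filament, was at -1.16 to 1.96 in the mesenchymal-like lines and was not called (adjusted p = 0.104), with absence from 4C11+. *Krt7* (at least 5.24), *Pkp1*, a desmosomal plakophilin (at least 3.66), and *Ocln*, a tight junction protein (at least 2.13), were likewise absent from the epithelial lines and present in the mesenchymal-like lines. These 4 genes of epithelial junctions and keratins were thus detected in the mesenchymal-like lines only. *Jup* (plakoglobin) was at 7.08 to 7.94 in the mesenchymal-like lines, 7.62 and 4.92 in melan-a and 2.09 to 2.67 in 4C11+ (difference 3.31). Among the lower genes were the tight junction scaffold *Tjp3* (difference -2.78 or below), the plakophilin *Pkp2* (-2.58 or below) and the claudin *Cldn12* (-1.54).

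Of 58 genes of collagens, laminins, elastic fibers and cross-linking enzymes, 33 were higher (56.9%, against 14.3% of all genes) and 13 lower (22.4%, against 15.3%), with a median difference of 1.31, and 19 and 8 of them were called in both pairs. Without the 2 libraries that stood apart 36 were higher and 13 lower, and with the line as a random block 21 and 8. *Col1a1*, the main fibrillar collagen chain (chr11:94936224-94953042), was at 10.81, 10.91 and 10.91 in 4C and 10.74, 10.42 and 10.55 in 4C11-, against 1.35 and 1.48 in melan-a and 2.17, 1.78 and 1.32 in 4C11+. Its difference was 9.13 (standard error 0.17, adjusted p = 5.7e-11). *Col3a1* (at least 5.60), *Col6a3* (8.23), *Bgn*, a small proteoglycan (at least 8.84), and *Lamc3*, a laminin chain (at least 8.74), were also higher without overlap. *Loxl1*, which cross-links elastin, was at 5.36 to 7.30 against -2.58 to 2.49, and *Nid2*, a linker of the basement membrane, at 7.56 to 8.81 against 2.54 to 4.70.

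The 13 lower matrix genes include laminin, nidogen and collagen IX chains. *Lama4*, a laminin chain, was at 6.74 and 6.91 in melan-a and 6.91, 6.93 and 7.62 in 4C11+, against -0.25, -2.44 and -3.44 in 4C and 5.49, 3.99 and 3.93 in 4C11- (difference -5.78, adjusted p = 5.3e-06). *Nid1*, the paralog of *Nid2*, was lower (-5.68 or below) where *Nid2* was higher, and *Col9a1* was lower by a difference of -5.62 or below. *Col6a1*, a collagen VI chain, was at 8.91 to 9.80 in the mesenchymal-like lines and -0.24 to 0.44 in 4C11+ but at 7.90 and 0.22 in the 2 melan-a libraries; its difference was 7.36 with melan-a replicate 2 and 9.28 without it. *Fbn2* was at 6.79 to 8.01 in the mesenchymal-like lines, at 3.97 and 3.38 in melan-a and absent from 4C11+, and *Emilin1* was at 7.63 to 8.78, against 2.65 and 1.29 in melan-a and 6.74 to 7.24 in 4C11+. The 2 epithelial lines thus differed from each other for both genes, and the interaction was called for each (adjusted p = 8.0e-06 and 0.00012).

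Metalloproteases, integrins, cadherins and axon guidance genes changed in both directions. Of 31 metalloproteases and inhibitors, 12 were higher (38.7%, against 14.3% of all genes) and 7 lower (22.6%, against 15.3%). Without the 2 libraries that stood apart the counts were 12 and 10, and with the line as a random block 5 and 1. *Mmp19* was at 3.84 to 5.89 against 0.28 to 1.77 (difference 3.78), and *Timp1*, an inhibitor of metalloproteases, was at 4.55 to 5.54 in the mesenchymal-like lines, 3.56 to 4.00 in 4C11+ and absent from melan-a. *Mmp2* (gelatinase A) was at 2.81 to 3.27 in 4C11+ and 6.42 to 8.47 in the 8 other libraries, *Mmp14* was not called (0.74, adjusted p = 0.107) and *Adam12* was absent from the mesenchymal-like lines (-5.13 or below). Of 37 integrin and focal adhesion genes, 13 were higher (35.1%) and 8 lower (21.6%). The counts were 6 and 3 with the line as a random block and 15 and 8 without the 2 libraries. *Itga11*, a collagen receptor (4.71, adjusted p = 0.00015), *Itga3* (4.63) and the actin cross-linker *Flnc* (5.80) were higher and *Itga8* (-6.17 or below) and *Itgb8* (-3.08 or below) lower, whereas *Itgb1*, the subunit that most of these receptors share, was at 8.87 to 9.83 in all libraries and was not called (0.05, standard error 0.19).

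In the cadherin superfamily 7 of 22 genes were higher (31.8%, against 14.3% of all genes) and 10 lower (45.5%, against 15.3%). The median of -1.64 became 0.13 among the members whose mean log2 CPM was at least 1. The counts were 5 and 8 with the line as a random block and 7 and 11 without the 2 libraries that stood apart. Besides *Cdh2*, the mesenchymal-like lines lacked *Cdh19*, a cadherin of the neural crest lineage (-6.48 or below), and *Pcdh1* was lower (-5.21 or below). *Cdh5*, known from endothelium, was at 6.73, 7.43 and 6.54 in 4C11- and 4.01, -0.70 and 0.44 in 4C, and was absent from the epithelial lines (at least 4.26). *Fat4*, an atypical cadherin, was at 6.14 to 7.96 in the mesenchymal-like lines, 6.30 and 3.64 in melan-a and absent from 4C11+. Of 43 axon guidance genes 14 were higher (32.6%) and 14 lower (32.6%). The counts were 11 and 9 with the line as a random block and 16 and 13 without the 2 libraries. *Slit3* (at least 5.19) and *Ntn1* (at least 7.82), which encode secreted guidance ligands, were higher, *Unc5c*, a netrin receptor, was lower (-7.75 or below) and so was the adhesion molecule *Nrcam* (-8.91 or below). *Robo1*, a receptor of SLIT ligands, was lower by a small amount (-0.62, adjusted p = 0.0331). The ligand *Ntn1* and the receptor *Unc5c* thus lay on opposite sides of the contrast.

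Of 40 measured ligands, receptors and regulators of WNT signaling, which stabilizes beta-catenin, 23 were higher (57.5%, against 14.3% of all genes) and 3 lower (*Fzd4*, *Kremen1* and *Lrp6*). With the line as a random block 11 were higher and 1 lower, and without the 2 libraries that stood apart 19 were higher and 4 lower. The median was 1.03, or 0.55 when lines without the gene were set to their value for 3 reads. *Wnt6*, a ligand, was at 6.71, 6.69 and 6.53 in 4C and 6.53, 6.34 and 5.61 in 4C11-, against no more than 3 reads in melan-a and 1.03, 0.44 and 1.03 in 4C11+ (difference of at least 6.18, adjusted p = 4.8e-09). *Wnt7b*, also a ligand, was absent from the epithelial lines (at least 4.36). *Wif1*, which binds and inhibits the ligands, was at 6.42 to 7.51 against -2.44 to 0.06 (difference of at least 7.13), and *Nkd1*, an inhibitor that the pathway induces, was absent from the epithelial lines (at least 4.42). Ligands and inhibitors were thus higher in the same lines. *Axin2*, a common target of the pathway, was at 5.89 to 6.42 in 4C, 4.01 to 4.65 in 4C11-, 2.96 to 3.60 in 4C11+ and -1.90 and 0.22 in melan-a, without overlap between the lines. *Wnt5a*, linked to invasive melanoma cells, was at 4.10 to 4.21 in 4C, at -0.25 and 4.95 in melan-a and at no more than 3 reads in 4C11- and 4C11+, and was not called (adjusted p = 0.614).

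Of 41 genes of the TGF-beta and BMP pathways, 26 were higher (63.4%, against 14.3% of all genes) and 1, *Id2*, was lower (-1.22, adjusted p = 0.0117), with a median of 1.28; 11 of the higher genes were called in both pairs. With the line as a random block 12 were higher and none lower, and without the 2 libraries that stood apart 28 were higher and 3 lower. *Inhbb*, an activin subunit, was at 5.37, 6.24 and 6.16 in 4C and 6.38, 5.10 and 5.11 in 4C11- and absent from both epithelial lines (at least 5.91). *Bmp4* was likewise absent from them (at least 5.28). *Bmp7* was at 6.31 to 7.92 in the mesenchymal-like lines but at 5.36 in melan-a replicate 2, against -1.42 in replicate 3 and -2.58 to -0.24 in 4C11+ (difference of at least 6.18 with replicate 2 and at least 7.88 without it). *Tgfb1*, the first ligand of the family, was higher (1.97, adjusted p = 0.0251) with overlap through melan-a replicate 2, and its difference was 2.95 without both libraries that stood apart (adjusted p = 5.1e-05). *Ltbp2*, which belongs to a family of proteins that store the ligands in the matrix, was higher by at least 6.44. *Id1*, a direct target of BMP signals, was at 6.17 to 6.46 in 4C and 7.42 to 8.96 in 4C11-, against 4.43 and 4.71 in melan-a and 1.97 to 3.84 in 4C11+ (difference 3.39, adjusted p = 1.9e-05). The named ligands and this target thus lay on the same side of the contrast. Among the receptors *Tgfbr1* was not called (-0.98, adjusted p = 0.0602) and *Acvrl1* was at no more than 3 reads in melan-a and at 3.95 to 6.59 in the 3 other lines.

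Of 37 growth factor receptors and ligands, 22 were higher (59.5%, against 14.3% of all genes) and 8 lower, with a median of 1.54. The counts were 15 and 4 with the line as a random block and 22 and 8 without the 2 libraries that stood apart. Besides *Egfr* and *Pdgfra*, *Igf2*, an insulin-like growth factor, was at 8.72, 8.83 and 8.50 in 4C11- and 4.38, 3.83 and 4.77 in 4C, against -2.44 to 0.87 in the epithelial libraries (difference of at least 6.33, adjusted p = 4.8e-08). *Gas6*, the ligand of AXL and related receptors, was at 8.17 to 8.65 in the mesenchymal-like lines, 6.59 and 6.06 in melan-a and at no more than 3 reads in 4C11+. *Fgfr2*, a receptor of fibroblast growth factors, was at 6.28 to 7.45 in every library of melan-a, 4C and 4C11- and absent from 4C11+. *Erbb3*, a neuregulin receptor of melanocytes and Schwann cells, was lower (-6.17, standard error 0.44), and *Vegfc*, which acts on lymphatic vessels, was at 3.92 to 4.33 in the epithelial lines and absent from the mesenchymal-like lines (-5.58 or below). *Pros1*, a further ligand of AXL and related receptors, was absent from 4C11- and at 4.24 to 6.40 in the other lines.

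Of 25 genes driven by the ERK pathway, 7 were higher (28%, against 14.3% of all genes) and 7 lower (28%, against 15.3%), with a median of -0.42. The number of lower genes ranged from 4 without melan-a replicate 3 to 9 without 4C replicate 1. There were 3 higher and 2 lower genes with the line as a random block and 6 and 6 without the 2 libraries that stood apart. *Dusp6*, a phosphatase of ERK, was lower (-0.89, adjusted p = 0.0403), *Etv5*, a transcription factor, was lower in the contrast (-2.31, adjusted p = 0.0145) with low values in 4C (0.69 to 4.95 against 5.26 to 7.61 in the 8 other libraries) and *Dusp5* was at no more than 3 reads in 4C11+ alone (2.37 to 5.62 elsewhere).

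The interferon-stimulated and MHC class I presentation genes were higher. Of 68 measured genes, 40 were higher (58.8%, against 14.3% of all genes) and 2 lower, with a median of 1.59; 23 of the higher genes were called with the line as a random block and 15 in both pairs. The 2 pairs had 16 higher and 3 lower in 4C against melan-a (median 0.80) and 44 higher and 4 lower in 4C11- against 4C11+ (median 2.06). *Ifitm1*, a membrane protein that hinders the entry of viruses, was at 5.95, 5.48 and 6.21 in 4C and 5.57, 5.22 and 5.18 in 4C11- and absent from the epithelial lines (at least 5.79). *Irf8* (at least 2.87) and the nucleic acid sensor *Zbp1* (at least 3.16) were also absent from them. *H2-K1*, a class I heavy chain, was at 4.24 to 8.84 against -0.72 to 2.37 (difference of at least 5.68, adjusted p = 4.6e-06), and the peptide transporter *Tap1* (2.68) and the immunoproteasome subunit *Psmb9* (at least 3.65) were higher without overlap. The class I heavy chains are near-identical in places, so the split of reads among them is uncertain. *B2m*, their light chain, was at 8.12 to 9.39 in all libraries outside 4C11+ and at 6.99 to 7.15 in it. The transcription factor *Irf1* was higher by a smaller amount (1.39, adjusted p = 0.00127), and *Irf7* was not called (1.79, adjusted p = 0.0591). The 2 lower genes were the interferon receptor subunit *Ifnar2* (-0.93) and *Mx1* (-4.41 or below), which was at 5.97 and 2.60 in melan-a and 1.20 to 2.32 in 4C11+ against -3.15 to -0.25; *Ifnar2* overlapped between the groups.

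Both libraries that stood apart held high values of genes of this list. *Isg15*, a ubiquitin-like protein induced by interferon, was at 5.30 in melan-a replicate 2 and 1.03 in replicate 3, at 6.82, 5.26 and 5.25 in 4C11-, at 2.26 to 3.35 in 4C and at 0.63 to 1.68 in 4C11+ (difference 2.21, adjusted p = 0.0237, and 3.28 without melan-a replicate 2). The summed level of the 68 genes was 5613 CPM in 4C11- replicate 1 and 2135 to 3078 CPM in the other mesenchymal-like libraries, and 2635 CPM in melan-a replicate 2 and 965 to 1369 CPM in the other epithelial libraries. Without both libraries 47 genes were higher and 3 lower, with a median of 1.63, and the count of higher genes was between 31 (without melan-a replicate 3) and 46 (without melan-a replicate 2) when each library was left out. The promoter of *Isg15*, which was chosen after its values were seen, is shown for the core of the element that interferon regulatory factors bind, GAAA followed by any 2 bases and another GAAA, which is in capitals (GRCm38.p6, chr4:156200819-156201068, minus strand, the 250 bases before the start).
Isg15: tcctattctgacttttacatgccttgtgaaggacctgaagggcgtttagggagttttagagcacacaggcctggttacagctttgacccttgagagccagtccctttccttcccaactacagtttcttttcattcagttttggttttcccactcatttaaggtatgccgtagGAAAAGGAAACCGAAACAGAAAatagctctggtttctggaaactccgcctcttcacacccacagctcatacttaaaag
It holds 3 overlapping matches that begin at positions -78, -72 and -66. On either strand this pattern was found in 23 of 53 matched promoters of the list (43.4%), in 67 of 1454 promoters of all called higher genes (4.61%) and in 291 of 9928 promoters (2.93%).

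Of 25 chemokine, cytokine and receptor genes 12 were higher (48%, against 14.3% of all genes) and 7 lower (28%, against 15.3%). The counts were 10 and 2 with the line as a random block and 13 and 7 without the 2 libraries that stood apart. *Il1r1*, a receptor of interleukin-1, was at 6.31 to 6.69 in 4C and 4.95 to 5.26 in 4C11- against -2.58 to 0.84 (difference of at least 6.40), *Cxcl14* was absent from the epithelial lines (at least 4.68) and *Ccl2*, which attracts monocytes, was at 4.46 to 5.20 against -2.58 to 2.02 (at least 4.21). *Tslp* was at 0.40 to 1.60 in the epithelial lines and absent from the mesenchymal-like lines (-2.42 or below). Of 63 lysosomal genes, 22 were lower (34.9%, against 15.3% of all genes) and 5 higher, with a median of -0.38. Of these, 12 lower and none of the higher genes were called with the line as a random block, and 24 were lower and 5 higher without the 2 libraries that stood apart. The median was -0.23 without melan-a replicate 2, and 2 genes were higher without melan-a replicate 3, 4C replicate 3 or 4C11+ replicate 1 and 3 without 4C11- replicate 2 or 4C11+ replicate 2. *Atp6v0e2*, a subunit of the proton pump, was at 1.45 to 4.35 against 6.04 to 7.76 (difference -3.94, adjusted p = 0.00012), *Ctsc*, a cathepsin, differed by -2.79, and *Hexa*, a hydrolase, by -1.79 (adjusted p = 0.0027). *Ctsd*, an aspartic cathepsin, differed by -1.51 with overlapping libraries.

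**Figure D3:**
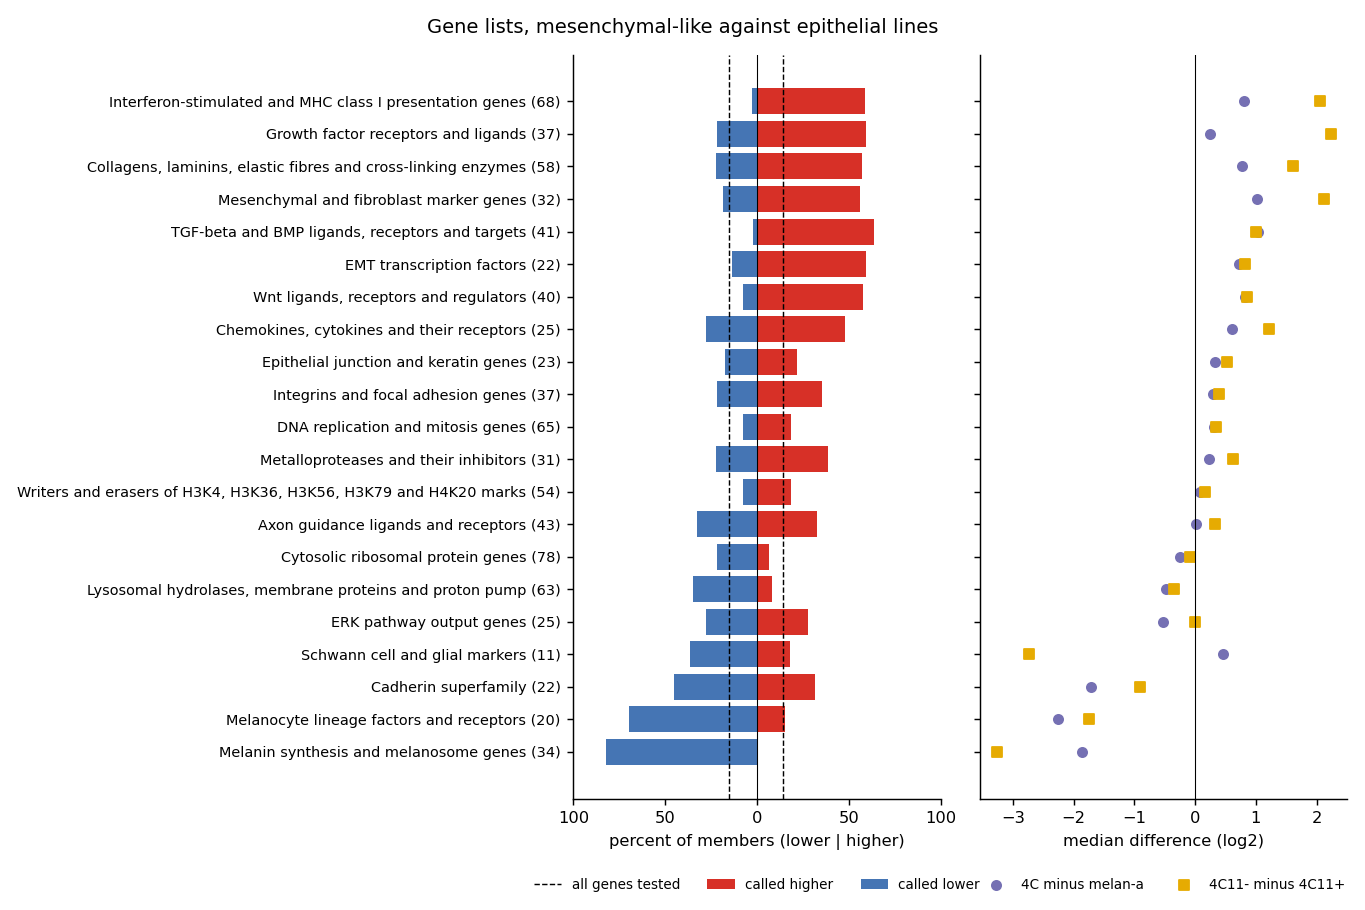
Gene lists with at least 10 measured members (number in parentheses), with the percent of members called lower (blue) and higher (red) in the mesenchymal-like against the epithelial lines on the left, dashed lines at 15.3% and 14.3% for all genes tested, and the median log2 difference of the members within each pair of lines on the right. The melanin and melanosome list has 82.4% lower and 0% higher, and the medians of the pairs lie on the same side of 0 for all lists shown except the Schwann cell markers.

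Markers of other cell types were few. Of the keratinocyte list 2 of 13 genes were measured, with *Krt10*, a keratin, called higher (adjusted p = 0.0481) at values between -2.58 and 1.48 that leave no difference when 4C11+, where it was absent, is set to 3 reads, and the defining *Krt5*, *Krt14* and *Trp63* were not among the genes tested. Of the leukocyte list 3 of 14 were measured, none was called and *Ptprc* was not among the genes tested; the summed level was 7.64 to 44.7 CPM in the mesenchymal-like and 9.11 to 20.2 CPM in the epithelial libraries other than melan-a replicate 2, which was at 96.8 CPM with *Cd68*, a lysosomal protein of macrophages, at 6.35 against 1.78 to 2.91 in the 10 other libraries. Of the endothelial list 4 of 12 were measured, with *Cdh5* higher, *Plvap* (-2.81) and *Egfl7* (-1.35) lower and *Pecam1* and *Kdr* not among the genes tested; its summed level was 102 to 182 CPM in 4C11-, 11.4 to 31.2 CPM in 4C and 19.4 to 53.2 CPM in the epithelial libraries. Of the Schwann cell and glial list 11 of 13 were measured. Of these, 4 were lower (36.4%, against 15.3% of all genes) and 2 higher (18.2%, against 14.3%). *Egr2* was among the higher genes (at least 2.59). *S100b* (-6.84), which melanocytes also express, was lower without overlap, and the summed level was 148 to 243 CPM in the mesenchymal-like and 465 to 1206 CPM in the epithelial libraries. The part of other cell types in the differences was not tested.

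Outside the lists, the largest higher differences among genes without overlap included *Svep1*, an extracellular adhesion protein (at least 7.28), *Gli2*, a transcription factor of the hedgehog pathway (at least 7.06), *Anxa8*, an annexin (at least 6.90), *Steap4*, a metalloreductase (at least 6.75), and *Bdkrb2*, the bradykinin B2 receptor (at least 7.23), all absent from the epithelial lines. *Gli2* was at 5.75, 5.95 and 5.91 in 4C and 7.82, 8.13 and 7.72 in 4C11-. The largest lower differences included *Car6*, a secreted carbonic anhydrase (-9.55 or below), *Prkcq*, a protein kinase C isoform (-8.07 or below), and *Gjc3*, a connexin of glia (-7.47 or below). *Car6* was at 7.96 and 8.26 in melan-a and 7.95, 8.01 and 8.50 in 4C11+, and *Prkcq* at 4.61 and 6.84 in melan-a and 7.77, 7.54 and 7.46 in 4C11+. The mesenchymal-like lines held no more than 3 reads of these 3 genes in any library.

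The difference between the pairs was tested as an interaction, which called 1403 genes (9.83%), 564 with a larger value in the pair of 4C and melan-a and 839 with a larger value in the pair of 4C11- and 4C11+. Of the genes called in both pairs, 123 had opposite directions, 57 higher in 4C and lower in 4C11- and 66 the reverse. Of the 2043 genes higher in the contrast, 913 were called only in the pair of 4C11- and 4C11+, 260 only in the pair of 4C and melan-a and 181 in neither, and of the 2189 lower genes the numbers were 1030, 310 and 292. Several genes with a large interaction were absent from 4C11+. *Cdkn2a* and *Cdkn2b*, which encode inhibitors of the cell cycle and lie next to each other on chromosome 4 (chr4:89274471-89294653 and chr4:89306299-89311039), were at 6.32 to 7.90 and 3.89 to 5.64 in the 8 libraries of the other lines and at no more than 3 reads in all 3 libraries of 4C11+. The contrasts were at least 3.43 and at least 2.61, and the pair of 4C and melan-a was not called for either gene (-0.41, adjusted p = 0.702, and 0.09, adjusted p = 0.927). *Cdkn1a*, another inhibitor, was at 7.46 to 7.47 in 4C11+ and 2.08 to 4.45 in the other lines.

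The imprinted neighbors *Peg3* and *Usp29* on chromosome 7 (chr7:6703892-6730431 and chr7:6730578-6967219) were also absent from 4C11+. *Peg3* was at 8.14 and 7.49 in melan-a, 6.49, 4.92 and 5.90 in 4C and 7.05, 8.87 and 9.17 in 4C11-, and *Usp29* was at 2.07 and 2.14 in melan-a, -3.44 to -0.04 in 4C and 1.73 to 2.96 in 4C11-. *Htr3a*, a serotonin-gated channel, was at 3.71 to 5.58 in 4C11- and at most 0.87 elsewhere, and *Dirc2*, a membrane transporter of the lysosome, was absent from 4C11-, at 3.57 to 6.09 in 4C and 4C11+ and at 3.13 and -2.58 in melan-a. *Nup210*, a nuclear pore protein, was at 7.79 to 7.92 in 4C11+ and at most 1.65 elsewhere. Opposite directions in the pairs were found for *Spp1* (osteopontin), which was lower in 4C than in melan-a (-2.69, adjusted p = 0.00534) and higher in 4C11- than in 4C11+ (5.69, adjusted p = 5.1e-06), and for *Fstl1*, which was higher by at least 3.68 in the first pair and lower by a difference of -2.31 (adjusted p = 0.00258) in the second. *Frmd5* and *P2ry1* were lower in 4C (-3.79 and -3.56 or below) and higher in 4C11- (at least 1.92 and 1.53), and *Hcn2* and *Hist1h1t* higher in 4C (at least 2.14 and 1.76) and lower in 4C11- (-3.67 and -3.88). *Usp29* and *Htr3a* were also called lower in 4C and higher in 4C11-. For these genes the contrast of the phenotypes averages opposite differences.

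The calls were spread unevenly over the chromosomes, which are given here as a description; gene copy number was not analysed. The median difference was -0.48 on chromosomes 6 and 12, with 9.25% of 778 genes higher and 29.1% lower on chromosome 6 and 7.78% of 514 genes higher and 29.0% lower on chromosome 12. On chromosome 12 the median was -0.81 between 4C11- and 4C11+ and -0.13 between 4C and melan-a, and in windows of 20 Mb the former was between -0.96 and -0.69 along the whole chromosome. Chromosome 6 had a median of -0.36 and -0.56 in the pairs. Chromosomes 10 and 16 had medians of -0.37 and -0.36. In the other direction, the X chromosome had a median of 0.45, with 33.1% of 405 genes higher and 10.4% lower. From 120 Mb to its end, 130 genes of the X chromosome had a median of 1.02, with 0.93 and 1.12 in the pairs and 54.6% higher, whereas 88 genes in its first 40 Mb had a median of -0.35. Chromosomes 4 and 8 had medians of opposite sign in the pairs, -0.60 and -0.55 between 4C and melan-a and 0.33 and 0.21 between 4C11- and 4C11+.

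**Figure D4:**
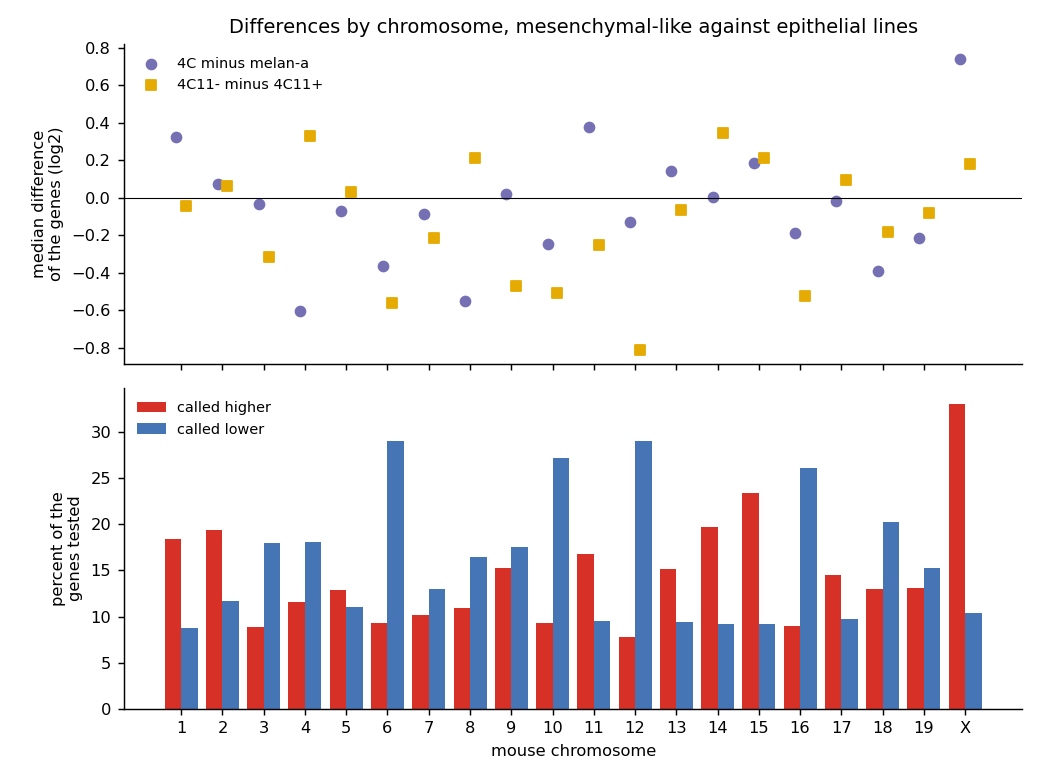
Median log2 difference of the genes of each mouse chromosome within the pair of 4C and melan-a (circles) and the pair of 4C11- and 4C11+ (squares) in the upper panel, and the percent of genes called higher (red) and lower (blue) in the mesenchymal-like against the epithelial lines in the lower panel. Chromosomes 6, 10, 12 and 16 have 26.1 to 29.1% lower genes, and the X chromosome has 33.1% higher genes.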

How the data were processed

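Total RNA of melan-a, 4C, 4C11- and 4C11+ was depleted of ribosomal RNA and sequenced from stranded libraries. Trimmomatic, STAR and limma are named in the submitters' processing notes, and per the study's methods reads were mapped to the Ensembl mouse annotation, counted with Rsubread and kept for genes reaching 1 CPM in 4 libraries or more. The deposited values were the authors' log2 CPM from limma voom for 14272 genes, 24 of them without a symbol, and all libraries shared their highest value, as after a quantile-type normalization, a step not given in the sources used here. The voom precision weights were not used here. Depth was estimated from low values of these normalized data, which lie on steps of whole reads, and is not the sequenced depth.

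Differences were computed with limma 3.58.1 in R 4.3.3 from line means (trend of the variance with the mean, p-values adjusted by Benjamini-Hochberg over all 14272 genes), and were tested on simulated data. Levels are the deposited values. Coordinates follow GENCODE M21 (GRCm38), joined by gene ID, and promoters follow RefSeq (GRCm38.p6), joined by symbol. The deviations of same-numbered libraries of different lines had correlations of -0.23 to 0.39, with 8 of 15 over 0.1. For libraries with different numbers they were -0.42 to 0.34, with 11 of 30 over 0.1. Replicate numbers were not used as pairs in the main fit.

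The lines compared and the gene lists were chosen with earlier results of these data known. Genes were named by a rule that took the 10 largest differences without overlap in each direction, list anchors, up to 4 called and 2 uncalled list members with the largest differences, the 5 largest interactions and 5 genes opposite in the pairs, and list members with an interaction. *Gpnmb*, *Sox9*, *Tead4*, *Tjp3*, *Pkp2*, *Cldn12*, *Col6a1*, *Nid1*, *Fzd4*, *Kremen1*, *Lrp6*, *Id2*, *Tap1*, *Psmb9*, *Ifnar2*, *Mx1*, *Postn*, *Itgb3* and *Eng* lay outside it and were chosen after their values were seen. A few genes that the rule takes are not reported here. Alternatives changed the normalization, the filter on low values, the variance model, library weights, the blocks and the libraries included; leaving out both libraries that stood apart, bounds for genes absent from a single line and permuting whole lines were added after seeing the data.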

Additional observations from a re-analysis of the deposited data

Results flagged for a closer look

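For 59 named genes the difference of 4C from melan-a and that of 4C11- from 4C11+ were not the same (limma interaction, adjusted p under 0.05; the values are the first minus the second on the log2 scale). Where a gene is absent from a line, the fitted value depends on the lowest value of the library and is no bound. Values above 0 were found for *Dirc2* (12.27), *Nup210* (11.34), *Xlr3c* (10.79), *Pros1* (9.91), *Tyr* (8.71), *Acvrl1* (8.47) and *Pmel* (8.27). Further values above 0 were those of *Hcn2* (7.70), *Hist1h1t* (7.53), *Fstl1* (7.25), *Timp1* (6.97), *Axin2* (5.90), *Emilin1* (5.29) and *Rab38* (4.99). They were also above 0 for *Kitl* (4.66), *Wnt6* (4.18), *Cdkn1a* (3.94), *Tspan10* (3.71), *Ccl2* (3.67) and *Met* (1.94).

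Values below 0 were found for *Peg3* (-12.42), *Htr3a* (-10.09), *Cdkn2a* (-9.61), *Frmd5* (-9.59), *Fgfr2* (-9.27), *P2ry1* (-8.96) and *Usp29* (-8.63). Further values below 0 were those of *Spp1* (-8.38), *Gas6* (-7.75), *Cdkn2b* (-7.55), *Itgb8* (-7.35), *Fbn2* (-6.77), *Fat4* (-6.59) and *Lama4* (-6.19). They were also below 0 for *Igf2* (-6.11), *Cdh5* (-5.85), *Snai2* (-5.67), *Col9a1* (-5.41), *Itga8* (-5.24), *Lef1* (-5.11) and *Nlrc5* (-5.02). Negative values were also those of *Isg15* (-4.99), *Itga3* (-4.70), *Dusp5* (-4.70), *Celsr2* (-4.63), *Etv5* (-4.40), *Krt10* (-4.11) and *Fn1* (-3.87). The list of negative values goes on with *Mmp2* (-3.76), *Jup* (-3.70), *Zeb1* (-3.54), *Cdh1* (-3.41), *Rab32* (-3.36), *Pdgfra* (-3.32) and *Id1* (-3.31). Next to these were *Axl* (-3.16), *Mcam* (-2.83), *Wif1* (-2.48) and *Rps25* (-2.21). *Xlr3c*, *Hist1h1t* and *Rps25* belong to families with near-identical copies, so their read counts are uncertain.

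Of 297 groups of libraries with at least 1 library over 3 reads, 31 held a library far from the others by Dixon's criterion. This criterion flags about 1 in 20 samples drawn from a single normal distribution. Each group here joins 2 lines, and the genes were chosen in part by their differences, so the count cannot be read against that rate. 4C replicate 1 was the far library for *Kit* (-0.04). 4C11- replicate 1 was the far library for *Kitl* (3.06), *Zeb2* (3.88), *Pcdh1* (-0.24), *Tgfbr1* (3.51), *Zbp1* (5.75), *Irf7* (5.97) and *Mki67* (5.07). 4C11- replicate 1 stood apart likewise for *Tap1* (6.51) and *Lrp6* (5.91). 4C replicate 3 was the far library for *Acta2* (9.96) and *Dusp5* (3.80). 4C11- replicate 3 was the far library for *Wnt6* (5.61). 4C11- replicate 2 was the far library for *Krt10* (1.14). Melan-a replicate 2 was the far library for *Rab32* (4.85), *Vim* (11.91), *Tnc* (8.30), *Krt8* (0.87), *Loxl1* (2.49), *Bgn* (1.63), *Adam12* (-0.25) and *Pcdh1* (5.10). Melan-a replicate 2 stood apart likewise for *Nrcam* (6.21), *Irf1* (5.59), *Isg15* (5.30), *Irf7* (2.07), *Col6a1* (7.90), *Postn* (-1.90) and *Cd68* (6.35). 4C11+ replicate 3 was the far library for *Lama4* (7.62). Melan-a replicate 3 was the far library for *Tgfb1* (0.22). The part of these libraries in the differences was measured by leaving them out, and its cause was not tested.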

How the results depend on the processing

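The contrast of 4232 genes was within 1.5 times of this count under each alternative except the line as a random block (1629 genes) and a fit on the 4 line means (486 genes, by construction with fewer samples). Library weights gave 9238 genes for 4C11- against 4C11+ and 2384 for the interaction. With 1 library removed at a time there were 3383 to 4854 genes for the contrast, 1453 to 2663 for 4C against melan-a, 2986 to 4813 for 4C11- against 4C11+ and 770 to 1934 for the interaction. The interaction count changed by over 1.5 times without 4C replicate 2 (865), 4C11- replicate 2 (869), 4C11+ replicate 1 (770) or 4C11+ replicate 2 (845). The differences of 3 genes that were not called changed sign. *Itgb1* was between -0.11 and 0.21 with a library left out (below 0 without melan-a replicate 2 or 4C replicate 3) and at -0.089 without both libraries that stood apart. *Wnt5a* was between -0.74 (without melan-a replicate 2) and 1.86 and at -0.74 with both left out, and *Mki67* was between -0.073 (without melan-a replicate 2) and 1.12, and below 0 also without 4C11- replicate 3 (-0.041). Among genes with a mean log2 value of at least 1 the median of the cadherin list became 0.13 and that of the melanin and melanosome list -1.59. The cause of these changes was not tested. From line means the difference in genes above 3 reads was 706, with an exact permutation p of 0.333 by construction with 4 lines. With the replicate number as a block the counts were 4566, 2265, 4715 and 1314, and the pairing changed no call by over 1.5 times. Of 145 named genes called in the contrast, 111 were called with the line as a random block, 69 on the 4 line means, 131 without line means and 137 to 145 when a library was left out, and none changed direction. On the 4 line means, 0 genes were higher and 13 lower in the melanin and melanosome list, and 4 and 0 among the EMT factors. The counts were 15 and 3 for the matrix list and 6 and 0 for the WNT list. They were 6 and 0 for the TGF-beta and BMP list and 9 and 0 for the interferon and MHC list. The contrast rests on 2 lines per phenotype, and low depth limits genes near 3 reads.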

Other observations

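Of 65 cell cycle genes, 12 were higher (18.5%) and 5 lower (7.69%, and 3 to 5 when a library was left out), against 14.3% and 15.3% of all genes, with a median of 0.35. With the line as a random block 1 was higher and none lower, and the median was 0.085 without melan-a replicate 2. *Top2a*, a topoisomerase of dividing cells, was higher (1.55, adjusted p = 0.026 in limma) and *Mki67*, a proliferation marker, was not called (0.45, adjusted p = 0.714) with values of 5.07 in 4C11- replicate 1 and 6.34 to 10.05 in the other libraries. The number of higher genes was 5 without melan-a replicate 2 and 21 without melan-a replicate 3, and it was 8 without 4C replicate 2, 4C11- replicate 3, 4C11+ replicate 1 or 4C11+ replicate 2. Of 54 histone modifier genes, 10 were higher (18.5%) and 4 lower (7.41%), among them *Kmt2a*, a methyltransferase (1.18), *Kdm2b*, a demethylase (0.52), and the histone variant *H2afv* (1.30) on the higher side and *Setmar* (-1.69) on the lower side. The higher count was 6 without 4C replicate 2 or 4C11+ replicate 1 and 16 without the 2 libraries that stood apart, the lower count was 1 without melan-a replicate 2, and with the line as a random block 2 were higher and none lower. *Ep300*, an acetyltransferase, was not called (0.52, adjusted p = 0.169 in limma).

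Of 78 ribosomal protein genes, 17 were lower (21.8%) and 5 higher (6.41%), with 4 lower and 1 higher with the line as a random block, 10 lower without 4C11+ replicate 2 and 11 without 4C replicate 2 or 4C11+ replicate 1, and 3 higher without 4C11- replicate 2, 4C11+ replicate 1 or 4C11+ replicate 2. *Rps12* was at 8.16 to 8.88 in the mesenchymal-like and 9.48 to 9.66 in the epithelial libraries, *Rpl36a* at 8.10 to 8.46 against 6.84 to 7.47, and *Rps25* at 9.39 to 9.58 in 4C11+ and 11.11 to 11.72 elsewhere. These genes have processed pseudogenes of near-identical sequence, and the split of reads between the copies is uncertain. Among 442 processed pseudogenes, 1.58% were higher and 14.5% lower, against 14.3% and 15.3% of all genes tested.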
